A study of Saccharomyces cerevisiae with 37 samples.

Results

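The genes described here are 10 chaperone and co-chaperone genes of budding yeast (Saccharomyces cerevisiae): HSP82, HSC82, AHA1, STI1, HSP104, SIS1, YDJ1, HSP78, HSP60 and HSP10. They were picked by name through the array platform's gene annotation, which gave each of them 1 probe set, and they are 10 of the 5449 genes the annotation names. All 10 passed the filter on dim probe sets and were tested, as 10 of 3899 genes. All samples came from 1 yeast strain, Y262, whose RNA polymerase II is temperature sensitive, grown in rich medium at 26 °C. The 4 cultures were 1 given 0.3 mM hydrogen peroxide for 25 min (oxidative stress), 1 given 0.1% methyl methanesulfonate, which alkylates DNA, for 40 min (DNA damage), and 2 without added stress (reference 1 and reference 2), the pretreatment times being read in the order in which the labels name the stresses. At time 0 every culture, references included, was brought to 37 °C by adding medium at 49 °C, which inactivates the polymerase. Arrays were taken at 0 min (2 technical arrays), 5, 10, 15, 20 and 30 min in all cultures and at 40, 50 and 60 min in all but reference 2, which makes 10 arrays each for oxidative stress, DNA damage and reference 1 and 7 for reference 2.

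Hsp90 is an abundant cytosolic chaperone that folds kinases, receptors and other clients with the help of co-chaperones. Yeast has an inducible Hsp90 gene, HSP82, and a constitutive one, HSC82. Hsp104 pulls proteins out of aggregates together with Hsp70 and its J-domain partners, Hsp78 does the like in the mitochondrial matrix, and Hsp60 with its lid Hsp10 forms the chamber in which imported mitochondrial proteins fold. Many of these genes carry binding sites for the heat shock factor Hsf1 and are known to be transcribed more on heat shock. The shift that stops transcription in these experiments is itself a temperature rise within the range that induces heat shock genes in this organism.

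Values are log2 and relative to the median gene of their array unless called deposited. This scale was used because the deposited values carry array-wide offsets. The 2 technical arrays of time 0 differed by a median of 0.36, 0.018, 0.46 and −0.13 in oxidative stress, DNA damage, reference 1 and reference 2, with an SD over genes of 0.060 to 0.087. The deposited change of the median gene was −0.21, −0.26, 0.051 and −0.52 over the first 5 min in the same cultures. A value above 0 on the relative scale can therefore mean a slower loss than that of the median gene. The oxidative stress culture stood apart in a ribosomal RNA probe set, which averaged −2.31 relative to the median gene over its arrays, against −0.59 in DNA damage, −0.045 in reference 1 and −0.27 in reference 2. In bacterial dap, thr and phe spike-in RNAs, the mean absolute difference was 0.061 between oxidative stress and reference 1, 0.11 between DNA damage and reference 2, and 0.21 to 0.24 between the other pairs. The labels give no batch, and the part of either pattern in the results was not tested. Values are therefore given for each reference. RPO21, the large subunit of the polymerase, stood at 1.11, 0.98, 1.24 and 1.24 at time 0 in oxidative stress, DNA damage, reference 1 and reference 2. An mRNA level does not show whether the temperature-sensitive allele is present.

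The first comparison asked how the transcripts changed in the first 5 min after the shift. Of the 10 genes, 6 rose above the median gene in the references (HSP78, HSP82, HSP104, AHA1, SIS1 and STI1), 0 fell and 4 did not pass (YDJ1, HSP10, HSP60 and HSC82). Over all 3899 genes, 9.26% were called higher and 11.4% lower in this comparison (limma on 1 value per culture, adjusted p under 0.05). The median change of the 10 genes was 0.53, against 0.015 for all genes.

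**Figure D1:**
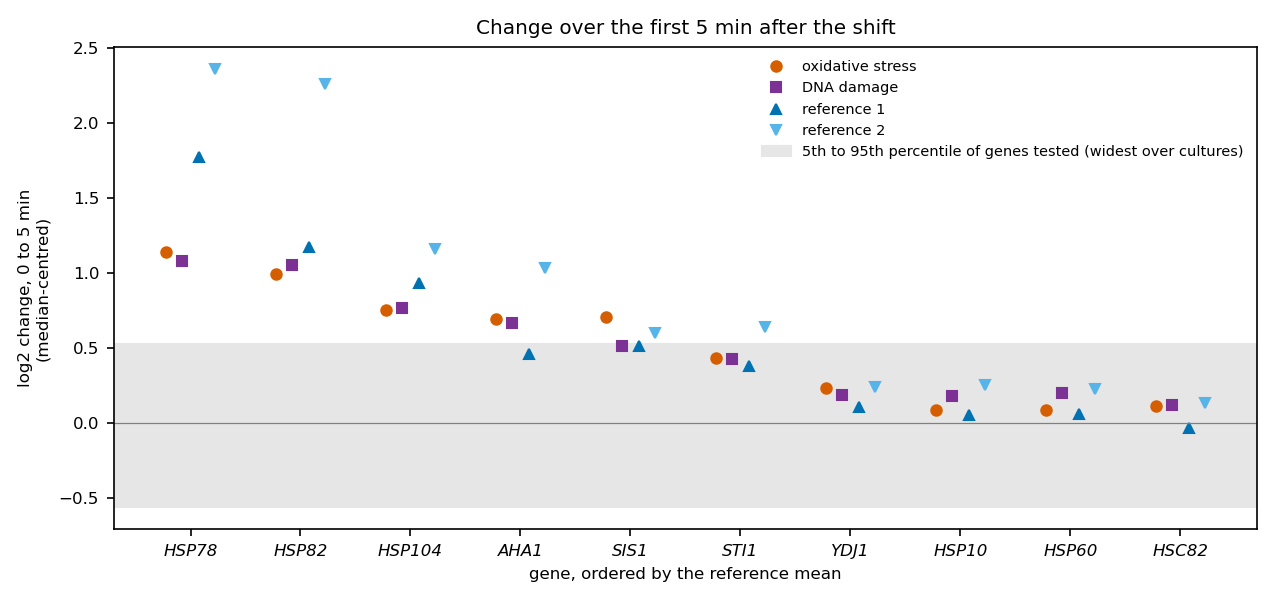
Log2 change from 0 to 5 min, relative to the median gene, for the 10 genes in the 4 cultures (1 point per culture, time 0 as the mean of 2 arrays), ordered by the mean of the references. The grey band runs from the lowest 5th to the highest 95th percentile of the genes tested (−0.56 to 0.53), and HSP78, HSP82 and HSP104 lie above it in every culture.

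HSP78 (YDR258C), the mitochondrial disaggregase, had the largest rise. Its change over 5 min was 1.14 in oxidative stress, 1.08 in DNA damage, 1.78 in reference 1 and 2.36 in reference 2. All 4 values lay above 0, and both stressed cultures lay below both references. The mean of the references was 2.07 ± 0.41 (SD, n = 2 cultures), a 4.20-fold rise over the median gene (standard error 0.15, adjusted p = 0.00346).

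HSP82 (YPL240C), the inducible Hsp90, changed by 0.99 in oxidative stress, 1.06 in DNA damage, 1.18 in reference 1 and 2.26 in reference 2. Reference 2 stood apart from the 3 other cultures, which lay within a narrow range. The mean of the references was 1.72 ± 0.77 (SD, n = 2), or 3.29-fold (standard error 0.26, adjusted p = 0.0163). HSC82 (YMR186W), the constitutive Hsp90, had values of 0.11, 0.12, −0.033 and 0.13 in oxidative stress, DNA damage, reference 1 and reference 2. It stayed near the median gene in each of them (reference mean 0.051 ± 0.12, SD, n = 2, adjusted p = 0.683). HSP82 and HSC82 are close paralogs, so part of the signal of each probe set may come from the other gene, which was not tested.

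HSP104 (YLL026W), the cytosolic disaggregase, changed by 0.76 in oxidative stress, 0.77 in DNA damage, 0.93 in reference 1 and 1.16 in reference 2. The reference rise of 1.05 ± 0.16 (SD, n = 2) was 2.07-fold (standard error 0.085, adjusted p = 0.0045). As in HSP78 and HSP82, both stressed cultures lay below both references. These were 3 of the 10 genes, and 22.7% of all genes tested showed the same order. Each change starts from the time 0 level of its own culture, so this order is not separate from the levels compared below.

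The Hsp90 co-chaperone genes rose by less. AHA1 (YDR214W), which stimulates the ATPase of Hsp90, changed by 0.70, 0.67, 0.46 and 1.04 in oxidative stress, DNA damage, reference 1 and reference 2 (reference mean 0.75, 1.68-fold, adjusted p = 0.0298). STI1 (YOR027W), which passes clients from Hsp70 to Hsp90, changed by 0.43, 0.43, 0.38 and 0.64 in the same order (reference mean 0.51, 1.42-fold, adjusted p = 0.0238). For both genes the stressed cultures lay between the references. After quantile normalization of the arrays AHA1 (0.66) and STI1 (0.45) no longer passed (adjusted p = 0.0697 and 0.0554, against 0.00153 to 0.0697 and 0.000882 to 0.0554 over 8 alternatives).

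The J-domain genes, whose proteins hand substrates to Hsp70, differed. SIS1 (YNL007C) changed by 0.71, 0.52, 0.52 and 0.60 in oxidative stress, DNA damage, reference 1 and reference 2, and passed (reference mean 0.56 ± 0.058, SD, n = 2, adjusted p = 0.012). YDJ1 (YNL064C) had values of 0.23, 0.19, 0.11 and 0.24 and did not pass (adjusted p = 0.161). The chaperonin pair also did not pass over 5 min. HSP60 (YLR259C) had values of 0.090, 0.20, 0.062 and 0.23 (adjusted p = 0.242) and HSP10 (YOR020C) by 0.085, 0.18, 0.054 and 0.26 (adjusted p = 0.239). With the mean of 5 and 10 min in place of 5 min, HSP60 (0.25) and HSP10 (0.26) passed (adjusted p = 0.0412 and 0.0303, against 0.0412 to 0.54 and 0.0303 to 0.506 over 8 alternatives), where 1000 of 3899 genes were called higher.

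The 6 genes that passed also lay above their time 0 level in the deposited values at 5 min, in 4 of 4 cultures. They had passed on the relative change in the same reference arrays, and the share over all genes was not counted. The deposited median gene changed by −0.21 in oxidative stress, −0.26 in DNA damage, 0.051 in reference 1 and −0.52 in reference 2. The deposited change of HSP78 was 0.91, 0.80, 1.82 and 1.81 in oxidative stress, DNA damage, reference 1 and reference 2. That of HSP82 was 0.76, 0.78, 1.22 and 1.71, and that of HSP104 0.53, 0.49, 0.98 and 0.61. AHA1 had deposited changes of 0.47, 0.39, 0.51 and 0.49, while STI1 (0.21, 0.15, 0.42 and 0.09) and SIS1 (0.48, 0.24, 0.56 and 0.05) came close to 0 in reference 2. The technical arrays of time 0 in that culture differed by a median of −0.13. HSC82, HSP60 and HSP10 were above 0 in 1 of 4 cultures, reference 1, and YDJ1 in 2.

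The same comparison was made over related chaperone genes, against the 9.26% of all genes called higher and 11.4% lower. Among small and membrane heat shock genes and aggregate sorting factors 6 of 8 rose and 0 fell, with a median of 1.81. They were led by HSP30 (3.82), a plasma membrane protein, and HSP26 (3.44), a small heat shock protein that binds unfolding proteins. Among 17 tested genes of the cytosolic Hsp70 system 5 rose and 1 fell, with a median of 0.11. SSA4 (2.998), an inducible Hsp70, and SSE2 (1.84), an Hsp110 nucleotide exchange factor, rose most, and XDJ1, a J-domain gene, fell by 0.37. SSA4 and SSE2 have close paralogs. Of 9 further Hsp90 co-chaperones 1 rose, the cyclophilin gene CPR6 (0.70), and of 12 genes of the mitochondrial Hsp70, import motor and proteases 1 rose, MDJ1 (1.26), the J-domain partner of mitochondrial Hsp70. None of the 14 tested genes of the chaperonin CCT and prefoldin was called (0 of 14 with limma, 2 at an unadjusted p under 0.05). Among 4 tested stress transcription factor genes, 0 rose and SKN7 fell by 0.89.

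The later time points showed how long the rises lasted relative to the median gene. In oxidative stress HSP82 stood at 2.03, 3.02, 3.40, 3.48, 3.51 and 3.56 above the median gene at 0, 5, 10, 15, 20 and 30 min, and at 3.64 at 60 min. In DNA damage the same series was 1.69, 2.75, 3.11, 3.22, 3.22 and 3.10, and it was 2.96 at 60 min. The references had 1.73, 2.91, 3.34, 3.42, 3.55 and 3.47, with 3.51 at 60 min, in reference 1 and 0.78, 3.04, 3.36, 3.39, 3.26 and 2.96 in reference 2. Most of the change was made by 10 min. After 15 min HSP82 stayed near its plateau in oxidative stress and reference 1, and was lower again at 30 min in DNA damage and reference 2. This plateau is relative to the median gene. The deposited values of HSP82 were highest at 5 min in oxidative stress, reference 1 and reference 2, and at 10 min in DNA damage. In reference 1 they went from 15.99 at 5 min to 15.32 at 30 min and 14.83 at 60 min.

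**Figure D2:**
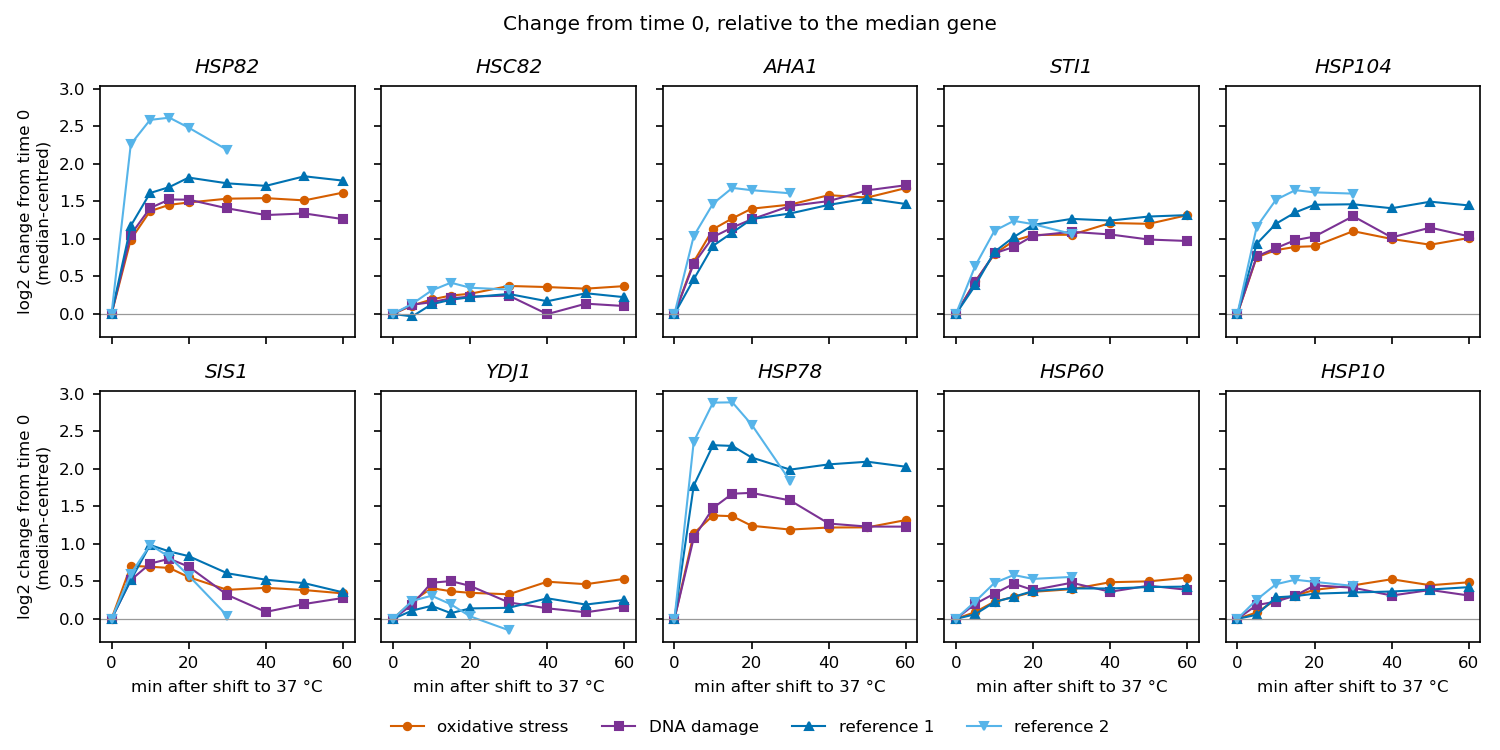
Log2 change from time 0, relative to the median gene, against minutes after the shift to 37 °C, 1 panel per gene and 1 line per culture (1 array per point after time 0, and the mean of 2 at time 0). HSP82, HSP78, HSP104, AHA1 and STI1 stood at 1.06 to 2.18 at 30 min, SIS1 peaked by 15 min, and HSC82, YDJ1, HSP60 and HSP10 reached at most 0.58.

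HSP78 came back part of the way by 30 min. Up to that time its change from time 0 peaked at 1.38 at 10 min in oxidative stress and at 1.68 at 20 min in DNA damage, and at 30 min it was 1.19 and 1.58. In reference 1 it was 1.78, 2.31, 2.30, 2.15 and 1.99 at 5, 10, 15, 20 and 30 min, and in reference 2 it was 2.36, 2.88, 2.89, 2.59 and 1.84. The return from the peak was over 1 in reference 2 and smaller in the 3 other cultures. SIS1 had its largest change at 5 min in oxidative stress (0.71), at 15 min in DNA damage (0.80) and at 10 min in reference 1 (0.98) and reference 2 (0.99), and at 30 min it was at 0.39, 0.32, 0.61 and 0.04. On the relative scale AHA1 and STI1 had their highest values later than HSP78 did in oxidative stress, DNA damage and reference 1. In reference 2 they had them at 15 min like HSP78. The deposited values of STI1 were highest at 5 min in oxidative stress and reference 1, and at 10 min in DNA damage and reference 2. AHA1 reached 1.46, 1.44, 1.34 and 1.61 at 30 min in oxidative stress, DNA damage, reference 1 and reference 2, and 1.68, 1.72 and 1.46 at 60 min in the 3 cultures followed that far.

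Over the whole window from 0 to 30 min, 5 of the 10 genes had a slope above that of the median gene in the references, 0 below it, and 5 did not pass. Of all genes, 13.9% were called higher and 10.8% lower. The slopes, in log2 per 10 min, were 0.50 for HSP82 (adjusted p = 0.0264), 0.45 for AHA1 (adjusted p = 0.0273), 0.45 for HSP78 (adjusted p = 0.028), 0.43 for HSP104 (adjusted p = 0.0273) and 0.37 for STI1 (adjusted p = 0.0314). HSP60 (0.16, adjusted p = 0.0555), HSP10 (0.13, adjusted p = 0.0744) and HSC82 (0.11, adjusted p = 0.103) lay above 0 in both references without passing. SIS1 (0.16 in reference 1 and −0.041 in reference 2) and YDJ1 (0.035 and −0.086) had references on opposite sides of 0. A slope of 0 is that of the array median. Over all genes the median of the reference slopes was 0.037, and 60.3% lay above 0. YDJ1 was at percentile 47.8 of the genes tested in reference 1 and 23.5 in reference 2, low in both.

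These calls were not made when the first time points were left out. Over 5 to 30 min none of the 10 was called (0 with limma, 3 at an unadjusted p under 0.05), where 112 of 3899 genes were called higher and 150 lower. AHA1 stood at 0.26 (adjusted p = 0.0719), STI1 at 0.23, HSP104 at 0.17, HSP82 at 0.066 and HSP78 at −0.13. Over 10 to 30 min no gene was called at all (0 of 3899 with limma, 920 at an unadjusted p under 0.05, of which 2 of the 10). In that window HSP78 (−0.36, adjusted p = 0.168) and SIS1 (−0.33, adjusted p = 0.162) had the lowest values. Over 9 alternatives to the slope fit the adjusted p ran over 0.00961 to 0.354 for HSP78 and 0.162 to 0.851 for SIS1. In the deposited values over 10 to 30 min, HSP78 had slopes of −0.18, −0.26, −0.53 and −0.55 log2 per 10 min in oxidative stress, DNA damage, reference 1 and reference 2, and SIS1 of −0.24, −0.52, −0.54 and −0.48. The slope of the median gene was −0.055, −0.28, −0.31 and 0.011 in the same window. That of AHA1 was 0.079, −0.085, −0.14 and 0.046, above the median gene in each culture.

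**Figure D3:**
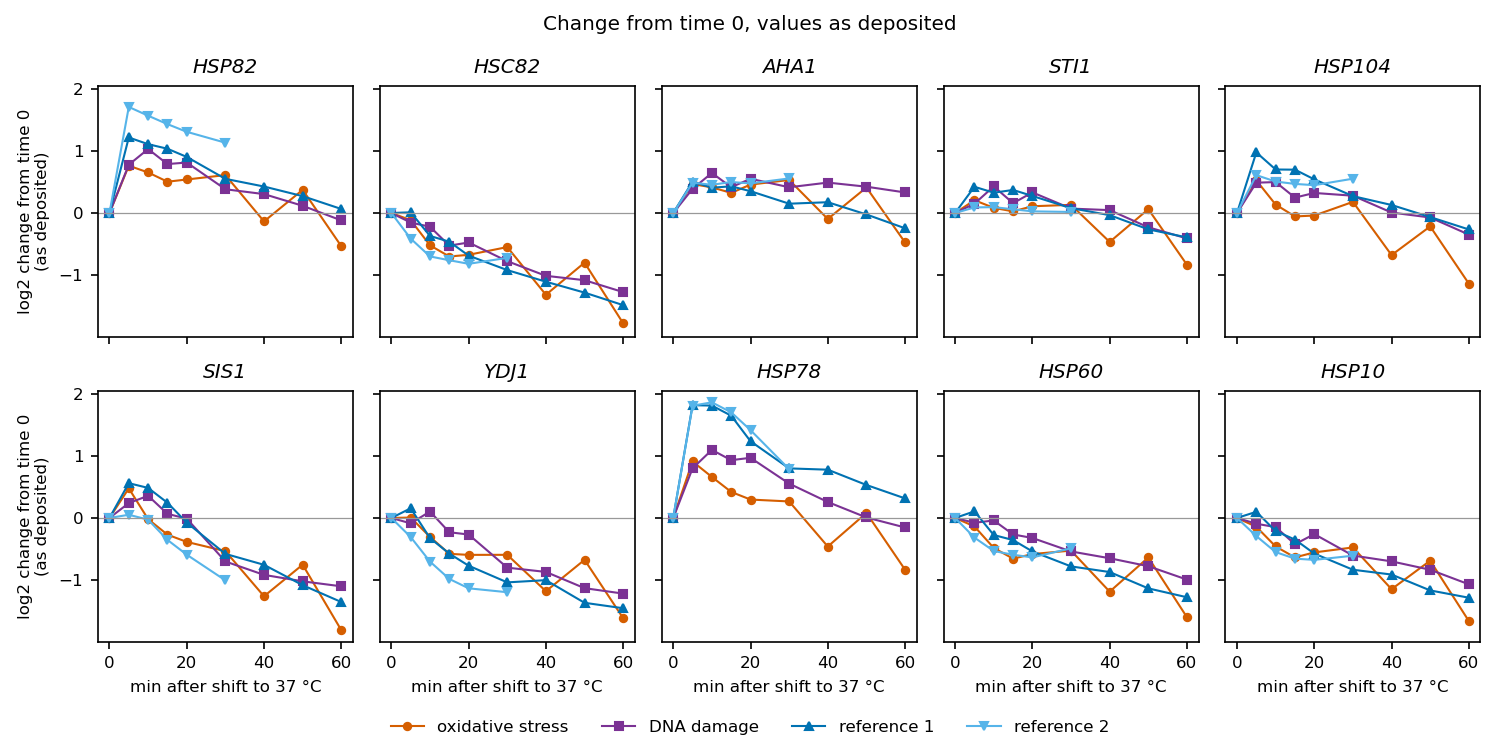
Log2 change from time 0 in the deposited values against minutes after the shift, 1 panel per gene and 1 line per culture, on the array scale the authors deposited. HSC82, HSP60, HSP10 and YDJ1 stood at −1.78 to −0.996 at 60 min, while AHA1 and HSP82 lay between −0.54 and 0.33 then.

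At 60 min the deposited values of the 10 genes lay far apart. HSC82 stood at −1.78, −1.28 and −1.49 relative to time 0 in oxidative stress, DNA damage and reference 1. HSP60 stood at −1.60, −0.996 and −1.28 and HSP10 at −1.67, −1.07 and −1.29. HSP82 was at −0.54, −0.12 and 0.07, and AHA1 at −0.48, 0.33 and −0.25. Deposited slopes from 30 to 60 min ran from −0.35 to −0.24 over the 10 genes in oxidative stress, from −0.24 (HSP78) to −0.032 (AHA1) in DNA damage, where the median gene had −0.14, and from −0.27 (SIS1) to −0.14 (AHA1) in reference 1. They were −0.29 for HSP82 and −0.32 for HSC82 in oxidative stress, where the median gene had −0.32 log2 per 10 min, and −0.16 and −0.19 in reference 1, where the median gene had −0.18. Each of these late points is 1 array, and the 50 min array of oxidative stress lay above its neighbours for all 10 genes.

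The second comparison asked whether the stress given before the shift had changed the starting levels. None of the 10 genes was called at time 0 in oxidative stress against the references (0 with limma, 2 at an unadjusted p under 0.05), where 3.03% of all genes were called higher and 0.769% lower. The median difference of the 10 was −0.029, against −0.090 over all genes. HSP78, HSP82 and HSP104 had the largest differences above 0, and YDJ1 the lowest.

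**Figure D4:**
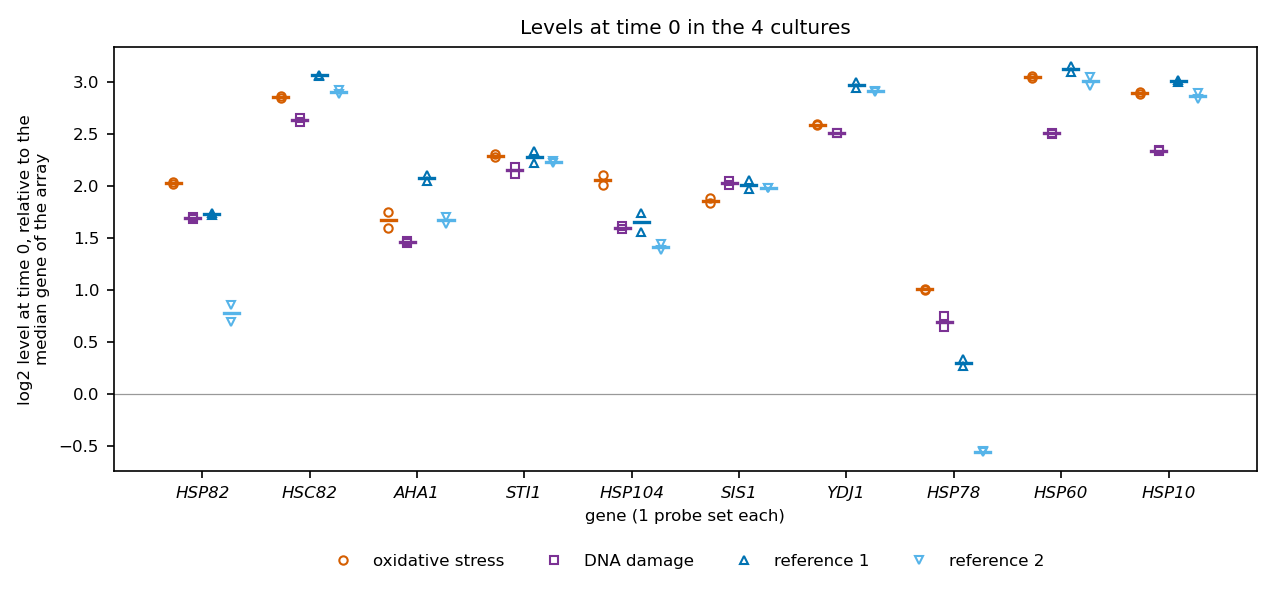
Log2 level at time 0 relative to the median gene of the array, 2 technical arrays (open symbols) and their mean (bar) per culture, for the 10 genes. HSP82 and HSP78 differ between the references by 0.96 and 0.85, far more than between technical arrays. HSP60 and HSP10 are lowest in DNA damage, as are HSC82, AHA1, STI1 and YDJ1.

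HSP78 stood at 1.01 and 1.00 on the time 0 arrays of oxidative stress, 0.64 and 0.75 in DNA damage, 0.33 and 0.27 in reference 1, and −0.56 and −0.54 in reference 2. Both stressed cultures lay above both references, which held for 1 of the 10 genes and for 17.7% of all genes. The difference in oxidative stress was 1.13 (2.19-fold, standard error 0.35, adjusted p = 0.18), or 0.71 against reference 1 and 1.56 against reference 2. In DNA damage it was 0.82 (adjusted p = 0.283), or 0.39 against reference 1 and 1.25 against reference 2. The references themselves lay 0.85 apart.

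HSP82 stood at 2.03 and 2.02 in oxidative stress, 1.71 and 1.68 in DNA damage, 1.74 and 1.72 in reference 1, and 0.86 and 0.69 in reference 2. Reference 2 was low, and the other 3 cultures were close together. The difference was 0.77 in oxidative stress (adjusted p = 0.405; 0.29 against reference 1 and 1.25 against reference 2) and 0.44 in DNA damage (adjusted p = 0.545; −0.037 and 0.92). HSP104 stood at 2.01 and 2.10 in oxidative stress, 1.58 and 1.62 in DNA damage, 1.56 and 1.74 in reference 1, and 1.39 and 1.44 in reference 2. Oxidative stress was the highest culture, by 0.53 over the mean of the references (adjusted p = 0.307). In the deposited values, where the median gene at time 0 stood at 13.3 in oxidative stress, 12.89 in DNA damage, 13.03 in reference 1 and 12.86 in reference 2, HSP78 (1.51, adjusted p = 1.42e-05), HSP82 (1.16, adjusted p = 0.0018) and HSP104 (0.91, adjusted p = 0.0184) were called higher. In that setting 458 of 3899 genes were called higher. Over 7 alternatives the adjusted p ran over 1.42e-05 to 0.264 for HSP78, 0.0018 to 0.437 for HSP82 and 0.0184 to 0.345 for HSP104. Without the filter on dim probe sets HSP78 was called as well (1.16, adjusted p = 0.0317), where 217 of 5449 genes were called higher.

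In DNA damage none of the 10 was called at time 0 (0 with limma, 2 at an unadjusted p under 0.05), against 1.33% of all genes called higher and 0.487% lower. The median difference was −0.22, against −0.096 over all genes. The chaperonin genes had the lowest values. HSP60 stood at 2.50 and 2.51 on the arrays of DNA damage, against 3.15 and 3.09 in reference 1 and 3.05 and 2.96 in reference 2, with 3.05 and 3.04 in oxidative stress. HSP10 stood at 2.34 and 2.34 in DNA damage, against 3.02 and 2.998 in reference 1 and 2.89 and 2.83 in reference 2, with 2.89 and 2.90 in oxidative stress. DNA damage lay below every other culture in both genes, as it also did in HSC82, AHA1, STI1 and YDJ1. The share of all genes with DNA damage lowest was not counted. The differences from the references were −0.56 (standard error 0.20, adjusted p = 0.25) and −0.60 (standard error 0.21, adjusted p = 0.234).

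Among the remaining genes, the highest and the lowest culture differed by 0.62 for AHA1, 0.46 for YDJ1 and 0.42 for HSC82 at time 0, where the median over all genes was 0.48. YDJ1 stood at 2.59 in oxidative stress and 2.51 in DNA damage, against 2.97 in reference 1 and 2.91 in reference 2 (differences −0.35 and −0.43, adjusted p = 0.483 and 0.305). HSC82 was at 2.85 and 2.63, against 3.06 and 2.90, and AHA1 at 1.67 and 1.46, against 2.08 and 1.67. In these 3 genes both stressed cultures lay below both references (for AHA1, oxidative stress and reference 2 were equal to 2 decimals), as did 34.7% of all genes. STI1 stood at 2.29, 2.15, 2.28 and 2.22 and SIS1 at 1.86, 2.03, 2.01 and 1.98 in oxidative stress, DNA damage, reference 1 and reference 2. All 4 cultures lay within 0.17 of each other for both genes.

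Oxidative stress and DNA damage were also set against each other at time 0. None of the 10 was called (0 with limma, 0 at an unadjusted p under 0.05), and 0.0513% of all genes were called higher and 0.0513% lower. The value was above 0 in 9 of 10, with a median of 0.26, and SIS1 was the exception (−0.17). Over all genes 56.4% lay above 0, with a median of 0.051. Related genes were also mostly above 0, with 8 of 8 small and membrane heat shock genes (median 0.87) and 14 of 17 in the Hsp70 system (median 0.37). The same held for 12 of 14 in CCT and prefoldin (median 0.20) and 8 of 9 other Hsp90 co-chaperones (median 0.18). In the mitochondrial list 9 of 12 lay above 0 (median 0.21), and of the 4 stress transcription factor genes 1 did. Among the 10, HSP10 (0.55) and HSP60 (0.54) had the largest differences (adjusted p = 0.607 for both). In the deposited values both passed (0.99, adjusted p = 0.0421, and 0.98, adjusted p = 0.0451, against 0.0421 to 0.765 and 0.0451 to 0.781 over 7 alternatives). The deposited median gene itself stood at 13.3 in oxidative stress and 12.89 in DNA damage. These differences therefore include the offset between arrays, and 311 of 3899 genes were called higher in that setting.

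For HSP82 and HSP78 the cultures lay closer together at 5 to 20 min than at time 0. Reference 2 was the lowest culture at time 0 for both genes. It went from 0.78 to 3.04 at 5 min for HSP82 and from −0.55 to 1.81 for HSP78. Oxidative stress, DNA damage and reference 1 stood at 2.03, 1.69 and 1.73 for HSP82 at time 0, and at 3.02, 2.75 and 2.91 at 5 min. For HSP78 they stood at 1.01, 0.69 and 0.30, and then at 2.15, 1.77 and 2.08. For HSP82 the highest and the lowest of the 4 cultures differed by 1.25 at time 0, and by 0.29, 0.29, 0.26, 0.33 and 0.60 at 5, 10, 15, 20 and 30 min. For HSP78 the range was 1.56 at time 0 and 0.37, 0.44, 0.27, 0.41 and 1.00 thereafter. For the median gene it widened, being 0.48 at time 0 and 0.57, 0.63, 0.67, 0.66 and 0.72 later. Of the 735 genes whose range at time 0 was above 0.8, as it was for HSP82 and HSP78, 52.0% had a smaller range at 10 min. In 9.80% of the 735 it was at most 0.5 times that at time 0, as in HSP82 and HSP78. The range was also smaller at 10 min than at time 0 for HSP104 (0.64 and then 0.46) and YDJ1 (0.46 and then 0.22). At 0 and 10 min it was 0.62 and 0.66 for AHA1, 0.67 and 0.76 for HSP10, and 0.62 and 0.64 for HSP60. For HSC82 it was 0.42 and 0.42, for STI1 0.14 and 0.38, and for SIS1 0.17 and 0.44. The highest deposited levels up to 30 min were 16.1 for HSP82 and 15.2 for HSP78, against 16.4 for HSP60, and whether signal near the top of the scale narrowed the range was not tested.

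**Figure D5:**
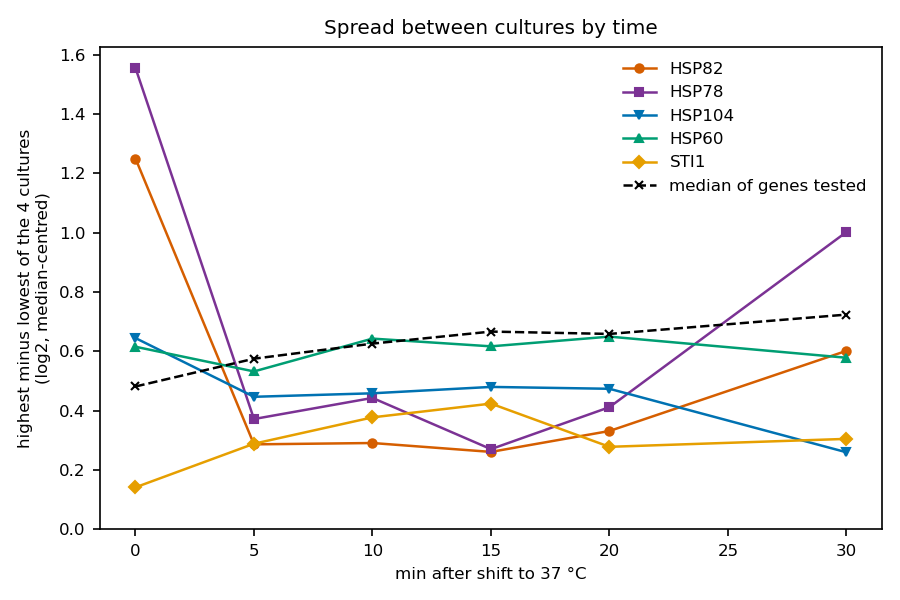
Highest minus lowest of the 4 cultures (log2, relative to the median gene) at 0 to 30 min for HSP82, HSP78, HSP104, HSP60 and STI1, and the median of that range over the genes tested (dashed). HSP82 and HSP78 drop at 5 min, from 1.25 and 1.56 to 0.29 and 0.37, whereas the median over genes rises with time. Reference 2 is the lowest culture at time 0 for both genes.

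The third comparison asked whether the stress changed the course after the shift. None of the 10 genes was called over the first 5 min in oxidative stress or in DNA damage against the references (0 with limma in each, 1 at an unadjusted p under 0.05 in each, HSP78). Over all genes the shares called were 0% higher and 0% lower in both, with 232 genes in oxidative stress and 411 in DNA damage at an unadjusted p under 0.05. The difference of HSP78 was −0.93 in oxidative stress (standard error 0.26, adjusted p = 0.8) and −0.99 in DNA damage (standard error 0.26, adjusted p = 0.408). That of HSP82 was −0.73 and −0.66, and that of HSP104 −0.29 and −0.28, with the other 7 genes between −0.082 and 0.15 in both stresses. The stress values share their references. Each change also starts from the time 0 level of its culture, so these differences are not separate from those in starting level. At 5 min HSP78 stood at 2.15 in oxidative stress, 1.77 in DNA damage, 2.08 in reference 1 and 1.81 in reference 2. HSP82 stood at 3.02, 2.75, 2.91 and 3.04 in the same order. Slopes over 0 to 30 min gave 0 calls among the 10 as well (0 at an unadjusted p under 0.05), and 0% of all genes were called in either direction in either stress (286 genes in oxidative stress and 743 in DNA damage at an unadjusted p under 0.05). The lowest slope differences in oxidative stress were those of HSP78 (−0.17, adjusted p = 0.779) and HSP104 (−0.14, adjusted p = 0.777), and in DNA damage that of HSP82 (−0.11, adjusted p = 0.381).

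Across the 37 arrays the 10 genes fell into profiles that were alike to different degrees, given here as a description, since arrays share cultures and times. HSP82 followed HSP78 (Pearson r = 0.97), HSP104 (0.96) and STI1 (0.91) more closely than its paralog HSC82 (0.55). HSC82 followed HSP10 (0.97) and HSP60 (0.96), and HSP60 and HSP10 followed each other (0.99). AHA1 and STI1 paired at 0.97, and SIS1 had no partner above 0.74. Outside the 10, the genes most like HSP82 over the 37 arrays were SPI1 (0.97), SSE2 (0.97), HSP42 (0.97), SSA4 (0.96) and TMA10 (0.95), where the median over all genes was 0.058. HSP104 had SPI1, SSA4, SSE2, HSP26 and CYC7 as its nearest (0.96 to 0.97, median over all genes 0.087). HSP60 had EXG2 (0.97), CAM1 (0.96), TIP1 (0.95), CPR3 (0.95) and VMA1 (0.95) as its nearest (median over all genes 0.15).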

How the data were processed

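The deposited values are log2 signals, 1 for each probe set, that the authors obtained with RMA, per the submitters' processing notes. RNA was copied from poly-T primers, per the labels' protocols, so signal can depend on tail length as well as on abundance. The sources used here give neither the RMA version nor the scaling between arrays. Of 5900 probe sets 5498 had 1 gene, 0 several and 402 none, and all 5498 matched a yeast gene table. The brightest probe set stood for a gene. Genes with a mean over the 28 arrays of 0 to 30 min above 11.04 (the 30th percentile) were tested. No genome was used.

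Each array was centred on the median of the genes tested. Each culture gave 1 value per gene: the mean level of its 2 technical arrays at time 0, the change from 0 to 5 min, and the least-squares slope over 0 to 30 min. limma 3.58.1 in R 4.3.3 (lmFit, eBayes) fitted the 4 cultures in 9 comparisons with Benjamini-Hochberg adjustment over all genes at 0.05. The 2 references gave the 1 residual degree of freedom, and eBayes added the variance shared over genes. The p-values therefore assume that each stressed culture varies as the references do, and the number of cultures limits precision. The labels do not say whether the references were grown independently. The fit was tested on simulated data. The members and gene lists were chosen with earlier results of these data known. Lists came from textbook knowledge. All 10 members are named, and of each list the up to 2 largest rises and falls called. Alternatives were deposited values, quantile normalization, filters, averaged probe sets, time windows and left-out arrays or references. The 10 to 30 min window was added after seeing the data.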

Additional observations from a re-analysis of the deposited data

How the results depend on the processing

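With 1 culture per stress and 2 references, each test has 1 residual degree of freedom and leans on a variance shared over all genes (prior degrees of freedom 5.46 for levels, 3.86 for the first 5 min and 2.43 for slopes), and leaving out a reference leaves a value with no test. The count of members rising over the first 5 min was 6 as reported and without either time 0 replicate, 4 after quantile normalization and 8 with the mean of 5 and 10 min. Members with a higher reference slope numbered 5, 6 without time 0 replicate 1, and 0 over 5 to 30 or 10 to 30 min. HSP78 reversed to −0.13 and −0.36 in these windows. HSP82 reversed to −0.076 over 10 to 30 min, as the mean of 0.064 in reference 1 and −0.22 in reference 2. The shorter windows leave out the early rise and also hold fewer time points. At time 0 in oxidative stress, deposited values called 3 members and no filter 1, and deposited values called 2 against DNA damage. Counts over all genes moved more. At time 0 in oxidative stress, 118 higher and 30 lower became 458 higher with deposited values, 75 and 3 with quantile normalization, and 217 and 123 without a filter. In DNA damage, 52 and 19 became 111 and 123, 22 and 1, and 100 and 98 under the same settings, and 4 to 6 lower without a time 0 replicate. Between the stresses, 2 and 2 became 311 and 13, 0 and 1, and 47 and 11, and 1 and 1 with the stricter filter. Over the first 5 min in the references, 361 and 446 became 216 and 249 with quantile normalization and 1000 and 846 with 5 and 10 min. For oxidative stress against them, 0 and 0 became 1 lower with deposited values or without either time 0 replicate, 1 higher and 10 lower with the stricter filter and 1 and 17 with 5 and 10 min. For DNA damage, 5 and 10 min gave 25 and 33. Reference slopes, 543 and 420, became 677 lower with deposited values, 660 lower without a filter, 360 higher with the stricter filter, 112 and 150 over 5 to 30 min, and 0 and 0 over 10 to 30 min. Deposited values called 1 and 30 slopes in oxidative stress and 16 and 55 in DNA damage. The cause of these moves was not tested.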

Other observations

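At time 0 in oxidative stress, where 3.03% of all genes were called higher and 0.769% lower, 3 of 8 small and membrane heat shock genes were called higher, with a median of 1.00 against −0.090 over all genes, led by HSP30 (4.01) and HSP31 (1.49), and of 4 stress transcription factor genes 1, YAP1 (1.61), the factor that drives the peroxide response. None was called in oxidative stress among 17 genes of the Hsp70 system, 9 other Hsp90 co-chaperones, 12 of the mitochondrial list and 14 of CCT and prefoldin. At an unadjusted p under 0.05 (limma) these lists had 1, 0, 1 and 1. All 6 lists had 0 called in DNA damage, where 1.33% of all genes were called higher and 0.487% lower. At an unadjusted p under 0.05 (limma) the same 4 lists had 4, 1, 0 and 0 there. Small heat shock genes had 4 and transcription factors 2.

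The other Hsp90 co-chaperones went in both directions over 0 to 30 min in the references, where 13.9% of all genes were called higher and 10.8% lower. Of 9 tested, 4 had a slope above that of the median gene and 4 below it. CPR6 (0.45 log2 per 10 min) and HCH1 (0.29), a relative of AHA1, led the first, and CNS1 (−0.67) and PPT1 (−0.66), the phosphatase that acts on Hsp90, the second. Of 14 CCT and prefoldin genes, 4 were lower, with CCT3 (−0.27) and GIM5 (−0.26) lowest, and 0 were higher.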
